A study of Mus musculus with 30 samples.

Results

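Collagens outside cartilage were taken as every gene whose symbol is Col, a number, the letter a and a number, apart from Col2a1, Col10a1 and the Col9 and Col11 genes, the collagens of cartilage. The rule found 37 genes among the 53715 in the count tables and set 7 cartilage collagens aside. RNA-seq read counts covered mouse embryos in which Myocd was labelled as conditionally deleted, and their controls. Myocd codes for myocardin, which switches on contractile genes of smooth muscle together with SRF. There were 6 MyocdCKO and 4 control tracheas at E18.5, 6 MyocdCKO and 4 control lungs at E18.5, and 5 MyocdCKO and 5 control lungs at E13.5, where E is the embryonic day. The MyocdCKO genotype was given as Tbx4rtTAi/+; tetOcrei/+; MyocdF/F. Controls were given as Tbx4rtTAi/+; tetOcrei/+; MyocdF/+, so they carried the driver, the Cre transgene and a single floxed allele. The exception was control replicate 1 of E13.5 lung, given as MyocdF/F with no transgene. The Cre depends on tetracycline and on a transactivator expressed from Tbx4, a gene of lung and tracheal mesenchyme, and its inducer is not given in the labels. Each library was made from the tissue of a single embryo: the trachea at E18.5, the right lobes of the lung at E18.5, and all lobes at E13.5. Whether libraries of a group came from separate litters is not given, so p-values measure the spread between these embryos.

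Collagens are secreted or membrane-bound proteins built from triple helices of alpha chains, and each gene codes for a chain. Fibrillar collagens form the cables that give tensile strength, with types I and III the bulk of the fibre and type V inside it. Type IV collagen forms the sheet-like network of basement membranes under epithelium and around vessels, and type VI forms beaded filaments between cells and fibres. In the lung the alveolar wall has a basement membrane shared by epithelium and endothelium, whereas the tracheal wall is held by dense connective tissue around its cartilage rings.

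Total counts ran between 11.7 and 30.5 M per library in the trachea, 19.9 and 32.8 M in E18.5 lung, and 17.4 and 28.4 M in E13.5 lung. Levels are counts per M (CPM). Myocd itself averaged 5.62 ± 2.0 CPM in MyocdCKO tracheas (SD, n = 6) and 4.77 ± 2.95 CPM in control tracheas (SD, n = 4). It averaged 7.23 ± 1.88 CPM in E18.5 MyocdCKO lungs (SD, n = 6) and 9.26 ± 2.52 CPM in E18.5 control lungs (SD, n = 4), and 10.6 ± 3.21 and 13 ± 3.99 CPM in E13.5 MyocdCKO and control lungs (SD, n = 5 each). It passed no test, with edgeR adjusted p of 0.911, 0.651 and 0.998. These counts cover the whole gene, and the floxed exons are not given in the sources used here, so the level does not check the labels. The summed level of 8 contractile smooth muscle markers did separate the labelled genotypes without overlap. It was 170 to 389 CPM in MyocdCKO and 746 to 1130 CPM in control tracheas, 264 to 287 and 302 to 352 CPM in E18.5 lungs, and 188 to 407 and 587 to 770 CPM in E13.5 lungs. By edgeR, 2 of the 8 markers passed as lower in trachea, 2 in E18.5 lung and 5 in E13.5 lung. Of all genes, 0.0655%, 0.55% and 0.188% were called lower in the same order. Not every marker separated the genotypes alone. In E13.5 lung Des had 36.3 to 51.5 CPM in MyocdCKO and 41.4 to 53.5 CPM in controls. Markers of neck tissue next to the trachea varied from library to library, with skeletal muscle at 18 to 2900 CPM in MyocdCKO and 31.3 to 2380 CPM in control tracheas. Trachea MyocdCKO replicate 4, at 12.4 M counts, was the lowest of its group in 24 of the 32 members above 5 CPM. Trachea control replicate 2, at 11.7 M counts, was the lowest of its group in 20 of 31, and E13.5 MyocdCKO replicate 1, at 17.4 M counts, in 18 of 28. Trachea control replicate 2 also held cardiac muscle markers at 1490 CPM, where the other control tracheas had 61.4 to 145 CPM and MyocdCKO tracheas 33.1 to 672 CPM. Its Schwann cell and neuron markers were at 101 CPM, against 44.7 to 58.7 CPM in the other control tracheas.

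The 37 collagens took 3.75 ± 1.16% of all counts in MyocdCKO tracheas (SD, n = 6) and 4.605 ± 0.479% in control tracheas (SD, n = 4). Without MyocdCKO replicate 4 the share was 4.18 ± 0.551% (SD, n = 5). In E18.5 lung they took 2.23 ± 0.0743% in MyocdCKO (SD, n = 6) and 2.18 ± 0.132% in controls (SD, n = 4), and in E13.5 lung 0.994 ± 0.132% and 1.09 ± 0.0594% (SD, n = 5 each). The MyocdCKO and control ranges overlapped in each tissue, and the low trachea value of 1.603% was MyocdCKO replicate 4. Without replicate 1, E13.5 MyocdCKO lungs were at 1.05 ± 0.0541% (SD, n = 4). At least 35 of the 37 members averaged 1 CPM or more in each E18.5 group, and 33 did in E13.5 lung. The exception throughout was Col19a1, which averaged 0.193 CPM or less in every group and had no reads in any of the 6 E18.5 MyocdCKO lungs. A library with no reads allows a level up to 3 counts, 0.0990 to 0.151 CPM in those lungs.

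The collagen classes differed in which tissue they filled. Fibrillar collagens held 73.8 ± 1.82% of all reads on the members in control trachea (SD, n = 4), 28.9 ± 2.13% in E18.5 control lung (SD, n = 4) and 63.6 ± 1.72% in E13.5 control lung (SD, n = 5). Type IV collagen held 5.85 ± 0.25%, 43.1 ± 1.61% and 15.7 ± 0.876% in the same groups. Type VI held 12.9 ± 0.993%, 21.1 ± 0.959% and 9.41 ± 0.935%. For these 3 classes, the libraries of the 3 control groups did not overlap. MyocdCKO libraries of the same tissue had close shares: 74.5 ± 2.47%, 31.4 ± 0.644% and 63.7 ± 1.64% fibrillar (SD, n = 6, 6 and 5). The multiplexins, Col15a1 and Col18a1, held 2.50 ± 0.129% in E18.5 MyocdCKO lungs (SD, n = 6) and 2.16 ± 0.141% in control lungs (SD, n = 4). Their ranges there did not overlap but lay close, at 2.35 to 2.66% and 1.99 to 2.30%. They are named because no other class separated the genotypes in any tissue, and in trachea and E13.5 lung the multiplexins overlapped too. Shares of a fixed total cannot move independently, so they are a description of make-up and carry no test.

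**Figure D1:**
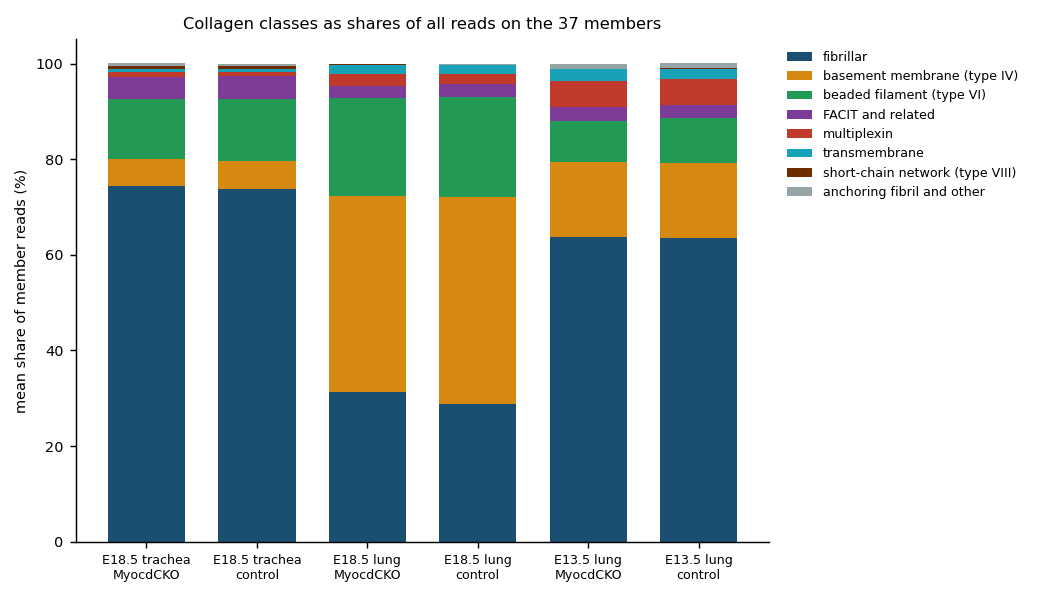
Mean share of the reads on the 37 members (vertical axis, percent) held by each of 8 collagen classes in the 6 groups. Fibrillar chains fill 73.8% of the control trachea column, and type IV chains 43.1% of the E18.5 control lung column and 15.7% of the E13.5 control lung column.

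To compare genes with one another, CPM was divided by transcript length in kb. On that scale Col3a1, the type III chain, led the trachea with 1868 CPM per kb in MyocdCKO and 2042 in controls, followed by the type I chains Col1a2 (1458 and 1837) and Col1a1 (1261 and 1566). Col3a1 also led E13.5 lung, with 436 CPM per kb in MyocdCKO and 482 in controls. In E18.5 lung the highest member was Col4a1, the alpha 1 chain of type IV, with 774.5 CPM per kb in MyocdCKO and 797 in controls. Lengths from the union of all annotated exons, chosen after seeing the data, put Col1a1 above Col3a1 in the trachea, at 1140 against 1059 in MyocdCKO and 1416 against 1157 in controls. The lead of Col3a1 in E13.5 lung and of Col4a1 in E18.5 lung was the same with either length.

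The member with the highest level per kb in each class showed the tissue pattern by library. Col16a1, a FACIT collagen that sits on fibre surfaces, averaged 911 ± 142 CPM in control trachea (SD, n = 4), 142 ± 15.5 CPM in E18.5 control lung (SD, n = 4) and 117 ± 14.2 CPM in E13.5 control lung (SD, n = 5). Col6a1, a chain of type VI, averaged 2032 ± 264, 1562 ± 113 and 409 ± 48.3 CPM in those groups. Col18a1, a basement membrane collagen whose end fragment is endostatin, ran the other way with 156 ± 18.9, 344.9 ± 39.1 and 476 ± 28.4 CPM. Col13a1, a membrane-spanning collagen, averaged 28.0 ± 3.75 CPM in trachea, 216 ± 22.7 CPM in E18.5 lung, where it peaked, and 103 ± 8.53 CPM in E13.5 lung. Col8a2, a short-chain network collagen, averaged 158 ± 17.3 CPM in trachea and 12.3 ± 1.32 and 12.8 ± 1.64 CPM in the lungs. Col26a1 averaged 43.8 ± 4.15 CPM in trachea, 4.64 ± 1.24 CPM in E18.5 lung and 89.4 ± 13.8 CPM in E13.5 lung.

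**Figure D2:**
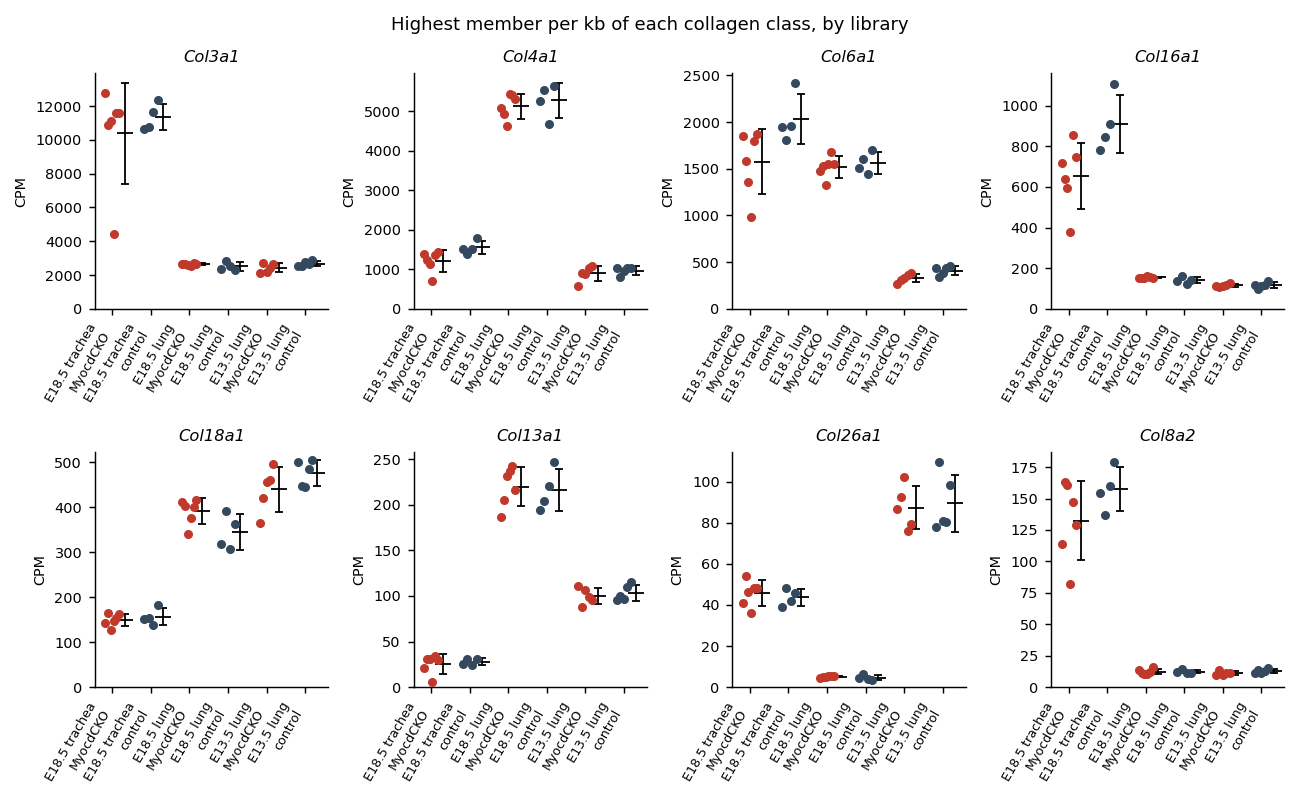
CPM (vertical axis, from 0) of the highest member per kb of each class in every library (points, red for MyocdCKO and blue for control), with the mean and SD of each group in black. Col4a1 stands high in E18.5 lung only, Col3a1, Col16a1 and Col8a2 stand high in trachea, and the 2 genotypes of a tissue overlap in each panel.

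Control trachea was compared with control lung at E18.5 to ask which collagens mark each organ. Of 36 members tested, 32 differed (88.9%), where 49.1% of all 19859 genes tested did. Higher in trachea were 21 members, against 24.5% of all genes, and lower were 11, against 24.6% of all genes. The median log2 fold change was 0.85 over the members and 0.01 over all genes. Calls are at an adjusted p under 0.05 by edgeR's quasi-likelihood test with Benjamini-Hochberg adjustment over all genes, as are all adjusted p-values below unless another tool is named. In bulk tissue, fewer cells of a type and less RNA per cell cannot be told apart. Among the fibrillar collagens 7 of 8 were higher in trachea and none was lower.

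Col1a1 had 6979, 9648, 8965 and 11560 CPM in the 4 control tracheas, against 970.6, 1333, 987.2 and 1244 CPM in the 4 control lungs. The tracheas were all far above the lungs, and the log2 fold change was 3.04 ± 0.20 (SE, adjusted p = 1.92e-12). Its partner chain Col1a2 rose by 2.66 ± 0.20, Col3a1 by 2.19 ± 0.19, and the type V chains Col5a1 and Col5a2 by 2.15 ± 0.16 and 1.40 ± 0.19. Col5a3, the other type V chain, had 71.4, 48.4, 59.1 and 89.5 CPM in tracheas, against 3.97, 3.10, 3.23 and 2.70 CPM in lungs. That is the steepest fibrillar difference, 4.37 ± 0.26 (adjusted p = 8.27e-13), at a low level. Col27a1, a fibrillar collagen also made by cartilage, rose by 2.28 ± 0.15. Col24a1 did not pass, with 13.7 ± 0.419 CPM in trachea and 17.4 ± 1.54 CPM in lung (SD, n = 4 each, edgeR adjusted p = 0.188). The summed level of 11 cartilage markers was 2530 to 3580 CPM in control tracheas, with all 11 at 1 CPM or more, and 202 to 257 CPM in control lungs, with 5 of 11 there. Its part in the fibrillar difference was not tested.

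The steepest rise among all members was in the short-chain network collagen Col8a1, known from vessel walls and the cornea. It had 110.5, 63.0, 126 and 114 CPM in the control tracheas, against 0.712, 1.58, 2.27 and 0.477 CPM in the control lungs. The groups lay far apart and the log2 fold change was 6.34 ± 0.45 (adjusted p = 3.57e-10), a fold of 81.2 with a 95% interval of 42.3 to 156. Its partner chain Col8a2 rose by 3.68 ± 0.18 (adjusted p = 9.82e-15).

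The collagens that tie stratified and basal epithelium to its bed were also higher in trachea. Col17a1, a hemidesmosome component of basal cells, had 114, 80.3, 115 and 108 CPM in the control tracheas, against 11.1, 6.05, 4.19 and 6.09 CPM in the control lungs (log2 fold change 3.93 ± 0.35, adjusted p = 7.97e-09). Col7a1, the anchoring fibril chain beneath such cells, had 181, 152, 202 and 202 CPM, against 23.8, 26.5, 20.6 and 19.6 CPM (3.03 ± 0.13, adjusted p = 1.09e-15). Neither gene overlapped between the organs. The 4 basal epithelium markers summed to 945 to 980 CPM in control tracheas, with all 4 at 1 CPM or more, and 29.5 to 40.1 CPM in control lungs, with 1 of 4 there. Their part in these differences was not tested.

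Of the 5 FACIT collagens tested, which decorate fibre surfaces, 4 were higher in trachea and none was lower. Of all genes, 24.5% were higher and 24.6% lower. Col12a1 rose by 2.97 ± 0.17, Col16a1 by 2.69 ± 0.16, Col14a1 by 1.33 ± 0.16 and Col20a1 by 1.37 ± 0.28 on the log2 scale. Col22a1, known from muscle and tendon junctions, did not pass (0.73 ± 0.65, adjusted p = 0.372) and was scattered, with 13.2, 2.91, 1.57 and 14.9 CPM in the control tracheas. The 8 skeletal muscle markers summed to 2380, 135, 31.3 and 945 CPM in the same 4 libraries, high in the 2 where Col22a1 was high. In MyocdCKO tracheas Col22a1 had 4.37, 4.6, 3.2, 12.2, 18.8 and 26.8 CPM beside marker sums of 54.8, 33.4, 18, 1600, 887 and 2900 CPM. The part of muscle in these values was not tested. Col26a1 rose by 3.24 ± 0.17. Type VI was split. Its main chains Col6a1 and Col6a3 rose little, by 0.39 ± 0.14 and 0.46 ± 0.14, and Col6a2 did not pass (0.31 ± 0.14, adjusted p = 0.0666). Col6a6, a chain that can take the place of alpha 3, rose by 3.33 ± 0.19, with 84.0 ± 15.6 CPM in trachea and 8.42 ± 0.695 CPM in lung (SD, n = 4 each). Col6a5 fell by 1.70 ± 0.44 and Col6a4 by 3.11 ± 0.94, with means of 6.05 and 4.24 CPM in lung.

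Members lower in trachea were led by type IV collagen, where 5 of 6 chains fell, against 24.6% of all genes, and none rose. Col4a3 had 3.86, 0.0, 2.34 and 0.901 CPM in the control tracheas, against 345, 259.5, 268 and 247.5 CPM in the control lungs, and its log2 fold change was -7.19 ± 0.49 (adjusted p = 6.82e-10). Col4a4 had 5.77, 2.18, 5.26 and 5.67 CPM, against 518, 367.5, 442 and 391 CPM (-6.45 ± 0.30, adjusted p = 1.09e-13). Together with Col4a5 these chains make the mature network of the alveolar and glomerular wall. The ubiquitous chains Col4a1 and Col4a2 fell by 1.75 ± 0.15 and 1.71 ± 0.13, Col4a5 by 0.70 ± 0.19, and Col4a6 did not pass (0.30 ± 0.16, adjusted p = 0.131). Outside type IV, Col13a1 fell by 2.94 ± 0.31, Col28a1, known from peripheral nerve, by 2.42 ± 0.61, Col18a1 by 1.13 ± 0.11 and Col25a1 by 0.76 ± 0.21. Col15a1, the other multiplexin, rose by 0.98 ± 0.16 and Col23a1 by 0.35 ± 0.11. The 6 endothelium markers summed to 412 to 470 CPM in control tracheas and 2920 to 3170 CPM in control lungs, and the 6 epithelium markers to 1170 to 1510 and 9710 to 11400 CPM. Most of the epithelium sum in control lungs was Sftpc, at 8530 to 10100 CPM, against 26.6 CPM or less in control tracheas. Of the 6 epithelium markers, 3 were called higher in trachea, against 24.5% of all genes, and 2 lower, against 24.6%. The larger sum in lung therefore does not hold for the epithelium markers as a set. The part of endothelium and epithelium in the lower members was not tested.

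**Figure D3:**
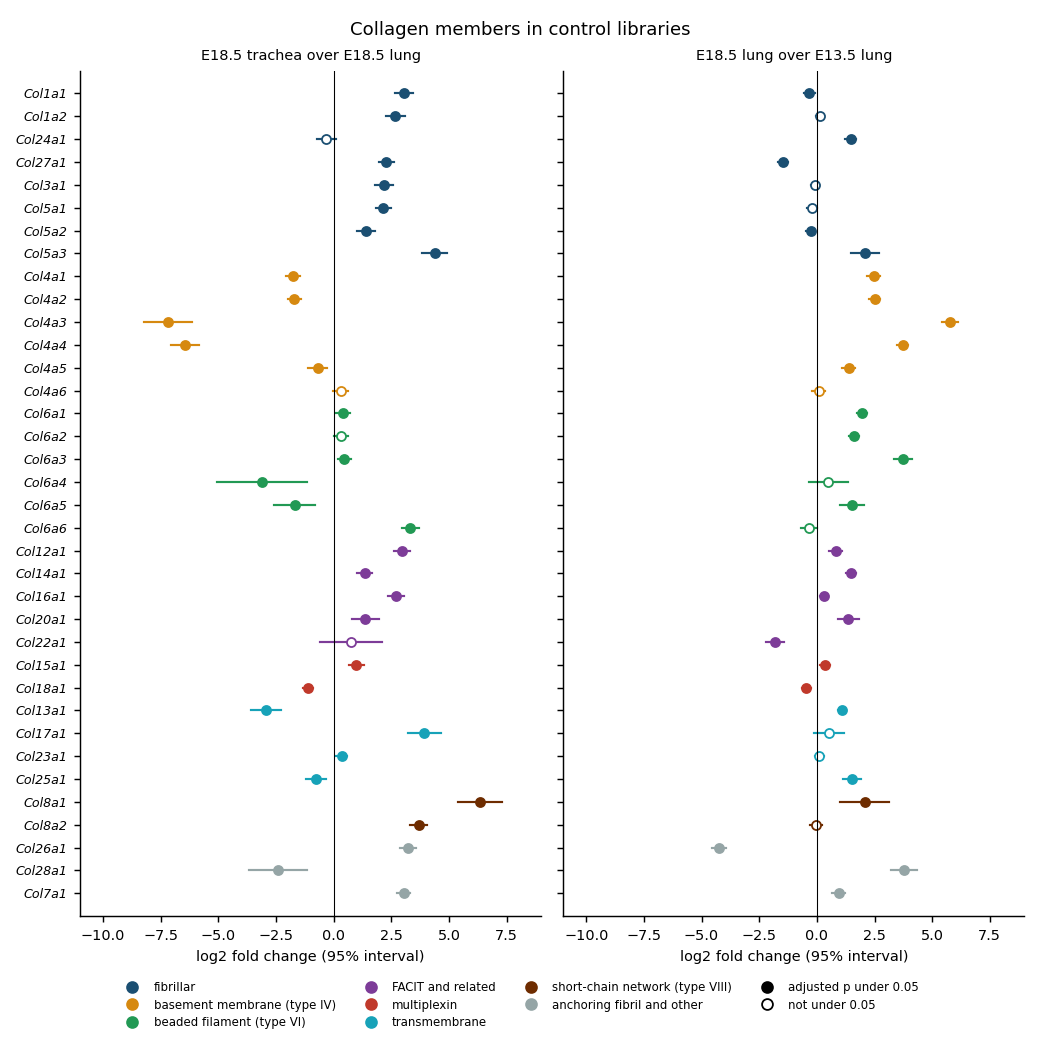
Log2 fold change (horizontal axis, dot) with its 95% interval (line) of 36 members in control libraries, E18.5 trachea over E18.5 lung on the left and E18.5 lung over E13.5 lung on the right. Filled dots passed an adjusted p of 0.05. On the left, fibrillar chains other than Col24a1 lie right of 0 and type IV chains other than Col4a6 left of it, and on the right the type IV and type VI chains lie mostly right of 0.

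Control lung at E18.5 was set against control lung at E13.5 to follow collagen genes through late lung development. Of 36 members tested, 27 differed, which is 75% of them and close to the 74.7% of all genes that differed. The count of calls is near that background. Higher at E18.5 were 21 members, against 37.4% of all genes, and lower were 6, against 37.3% of all genes. The median log2 fold change was 0.88 over members and -0.01 over all genes. Stage cannot be told apart from the lobes taken and the separate count tables.

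Type IV and type VI collagen rose, with 5 of 6 and 4 of 6 members higher at E18.5 and none lower. Of all genes, 74.7% were called, 37.4% higher and 37.3% lower, so the number of calls alone does not set these small classes apart. Col4a3 had 345, 259.5, 268 and 247.5 CPM in the 4 lungs at E18.5, against 4.62, 4.79, 5.37, 6.09 and 5.0 CPM in the 5 lungs at E13.5. No library lay between the stages, and the log2 fold change was 5.77 ± 0.17 (adjusted p = 1.98e-19), a fold of 54.7 with a 95% interval of 43.1 to 69.5. Col4a4 rose by 3.71 ± 0.11, Col4a2 by 2.51 ± 0.12, Col4a1 by 2.46 ± 0.13 and Col4a5 by 1.38 ± 0.13, while Col4a6 was at 54.7 ± 1.86 CPM at E18.5 (SD, n = 4) and 52.4 ± 9.13 CPM at E13.5 (SD, n = 5). In type VI, Col6a3 had 1545, 1323, 1513 and 1564 CPM at E18.5, against 165, 64.7, 109, 120 and 113 CPM at E13.5 (3.72 ± 0.19, adjusted p = 1.07e-14). Col6a1, Col6a2 and Col6a5 rose by 1.95 ± 0.10, 1.62 ± 0.11 and 1.52 ± 0.25. Col28a1, at 7.90 ± 1.23 CPM at E18.5 (SD, n = 4) and 0.575 ± 0.162 CPM at E13.5 (SD, n = 5), rose by 3.79 ± 0.27.

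Of the 8 fibrillar genes 2 rose and 3 fell between the stages, where 37.4% of all genes rose and 37.3% fell. Col3a1 and Col1a2 did not pass (-0.08 ± 0.08 and 0.14 ± 0.09, adjusted p = 0.363 and 0.151), nor did Col5a1 (-0.20 ± 0.10, adjusted p = 0.0779). Col1a1 and Col5a2 fell by 0.33 ± 0.12 (adjusted p = 0.0150) and 0.26 ± 0.09 (adjusted p = 0.0137). Both calls are marginal: without E18.5 control replicate 1 the adjusted p was 0.124 for Col1a1 and 0.0537 for Col5a2, and without E18.5 control replicate 3 it was 0.118 and 0.0764. Col5a2 was also lost without E18.5 control replicate 4 (adjusted p = 0.115) and without E13.5 control replicate 3 (0.0522). Col26a1 showed the steepest fall. It had 4.61, 6.38, 3.98 and 3.58 CPM at E18.5, against 78.0, 109, 80.9, 80.5 and 98.5 CPM at E13.5 (log2 fold change -4.24 ± 0.15, adjusted p = 8.77e-18). Col22a1, Col27a1 and Col18a1 fell by 1.81 ± 0.19, 1.47 ± 0.10 and 0.45 ± 0.09. The other risers were Col5a3 (2.09 ± 0.29), Col8a1 (2.08 ± 0.52, with 1.26 ± 0.822 CPM at E18.5), Col25a1 (1.54 ± 0.19), Col24a1 (1.47 ± 0.11), Col14a1 (1.47 ± 0.10), Col20a1 (1.37 ± 0.22), Col13a1 (1.08 ± 0.09), Col7a1 (0.96 ± 0.14), Col12a1 (0.81 ± 0.13), Col15a1 (0.34 ± 0.11) and Col16a1 (0.30 ± 0.08). Col6a4, Col6a6, Col8a2, Col17a1 and Col23a1 did not pass. The 6 endothelium markers summed to 2920 to 3170 CPM at E18.5 and 701 to 904 CPM at E13.5, and the epithelium markers to 9710 to 11400 and 619 to 789 CPM. Most of the epithelium sum at E18.5 was again Sftpc, at 8530 to 10100 CPM, against 11.9 to 57.8 CPM at E13.5. Of the 6 epithelium markers, 5 were called higher at E18.5, against 37.4% of all genes. The other 1, Epcam, was lower, at 75.2 to 85.3 CPM against 157 to 192 CPM. The part of endothelium and epithelium in the rise of type IV collagen was not tested.

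Type IV genes lie in head-to-head pairs, and their promoters are shown because Col4a1 and Col4a2, and likewise Col4a3 and Col4a4, changed in the same direction in both control comparisons. Coordinates are GRCm38, and the windows run from 250 bases before to 50 bases after a start site, from RefSeq on GRCm38.p6. Col4a1 and Col4a2 on chromosome 8 have annotated starts 21 bases apart, at 11312826 and 11312805, so their first exons overlap and a window of Col4a2 holds both. Col4a4 and Col4a3 on chromosome 1 start 72 bases apart, at 82586849 and 82586921, and the window of Col4a4 holds both. Col4a6 and Col4a5 on the X chromosome start 1309 bases apart, at 141474076 and 141475385, and have a window each. Each window is written 5′ to 3′ on the strand of the named gene, at chr8:11312555-11312854 (+), chr1:82586800-82587099 (-), chrX:141475169-141475468 (+) and chrX:141474027-141474326 (-). Capitals mark the CCAAT box (CCAAT, or ATTGG on the other strand) and the GC box (GGGCGG, or CCGCCC).
Col4a2: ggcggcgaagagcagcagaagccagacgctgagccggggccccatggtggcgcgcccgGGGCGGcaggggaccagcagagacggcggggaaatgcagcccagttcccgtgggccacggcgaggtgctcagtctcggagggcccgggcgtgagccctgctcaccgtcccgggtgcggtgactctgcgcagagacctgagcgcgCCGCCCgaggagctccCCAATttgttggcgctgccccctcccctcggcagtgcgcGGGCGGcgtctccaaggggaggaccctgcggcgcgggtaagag
Col4a4: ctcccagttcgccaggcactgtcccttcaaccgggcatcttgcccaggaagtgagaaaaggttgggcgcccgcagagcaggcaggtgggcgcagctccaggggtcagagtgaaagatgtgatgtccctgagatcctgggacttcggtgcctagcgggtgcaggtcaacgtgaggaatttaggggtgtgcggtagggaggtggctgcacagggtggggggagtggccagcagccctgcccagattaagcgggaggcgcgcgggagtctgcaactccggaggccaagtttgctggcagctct
Col4a5: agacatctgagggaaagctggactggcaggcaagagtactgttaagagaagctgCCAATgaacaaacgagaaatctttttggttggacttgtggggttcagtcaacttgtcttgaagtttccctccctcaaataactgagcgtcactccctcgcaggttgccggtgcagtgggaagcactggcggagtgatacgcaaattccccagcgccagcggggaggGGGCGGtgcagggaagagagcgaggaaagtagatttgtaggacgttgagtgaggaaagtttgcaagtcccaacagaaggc
Col4a6: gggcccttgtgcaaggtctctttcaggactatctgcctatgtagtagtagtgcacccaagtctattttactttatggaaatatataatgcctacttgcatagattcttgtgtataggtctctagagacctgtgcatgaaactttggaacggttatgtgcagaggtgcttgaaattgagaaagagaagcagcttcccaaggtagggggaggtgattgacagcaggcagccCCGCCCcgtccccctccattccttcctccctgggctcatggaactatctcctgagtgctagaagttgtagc

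The Col4a2 window holds 1 CCAAT box and 3 GC boxes, the Col4a4 window holds neither, the Col4a5 window 1 of each, and the Col4a6 window 1 GC box. Windows were found for 30 of the 37 members, 32 windows in all. A CCAAT box was in 34.4% of the member windows and in 37.4% of all 32851 windows of that length, and a GC box in 62.5% of member windows and 35.7% of all. The TATA box TATAAA was in 9.4% of member windows and 13.6% of all. A CArG box, the motif to which SRF binds, was in 1 of 32 member windows (3.1%), that of Col6a4, and in 1.6% of all windows. Motifs were searched on both strands; such a match is a run of letters and not a binding site.

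The partners Col4a1 and Col4a2 kept a nearly fixed ratio of CPM per kb in every group. The ratio of Col4a1 to Col4a2 averaged 1.70 ± 0.142 in MyocdCKO and 1.72 ± 0.191 in control tracheas, 1.75 ± 0.0165 and 1.76 ± 0.0412 in E18.5 lungs, and 1.83 ± 0.0752 and 1.82 ± 0.0986 in E13.5 lungs (SD, n = 6, 4, 6, 4, 5 and 5). The ratio of Col4a3 to Col4a4 was not fixed. It averaged 0.754 ± 0.0367 and 0.772 ± 0.051 in E18.5 MyocdCKO and control lungs, and 0.148 ± 0.0377 and 0.185 ± 0.0175 in E13.5 lungs, with no overlap between the stages. The ratio of Col4a5 to Col4a6 averaged 2.42 ± 0.418 and 2.80 ± 0.683 in MyocdCKO and control tracheas, 5.07 ± 0.273 and 5.32 ± 0.438 in E18.5 lungs, and 2.20 ± 0.0935 and 2.17 ± 0.148 in E13.5 lungs. At E18.5 the lungs lay above every trachea. Col1a1 to Col1a2, whose chains join at a fixed proportion in type I collagen, had a ratio of 0.885 ± 0.124 and 0.848 ± 0.0941 in tracheas and of 0.682 ± 0.0207 and 0.653 ± 0.0622 in E18.5 lungs. These ratios scale with the lengths used, while the fold between groups in a ratio does not.

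**Figure D4:**
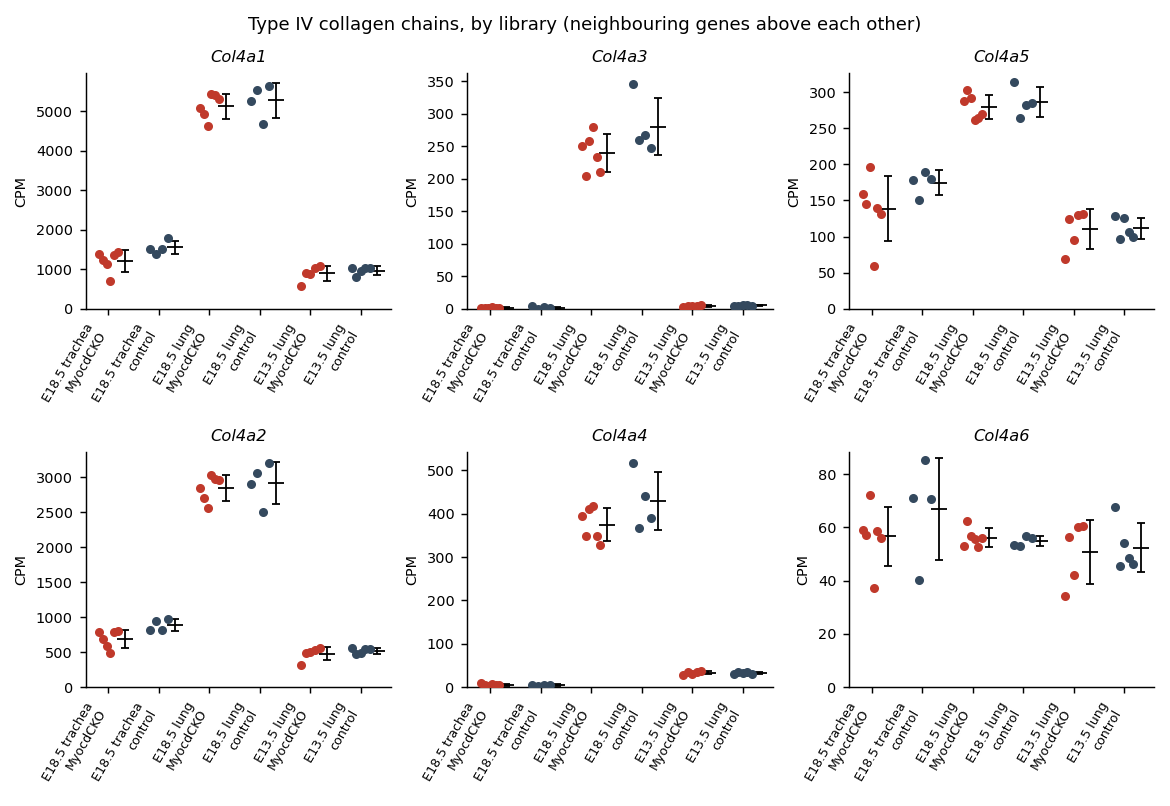
CPM (vertical axis, from 0) of the 6 type IV chains in every library (points, red for MyocdCKO and blue for control), with each group's mean and SD in black and the partners of a head-to-head pair above each other. Col4a3 and Col4a4 stand at 204 to 518 CPM in E18.5 lung, Col4a3 is near 0 in trachea and E13.5 lung, Col4a4 averages 33.4 CPM in MyocdCKO and 33.1 CPM in control lungs at E13.5 and lies below 10 CPM in trachea, while Col4a6 is level across tissues.

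MyocdCKO tissue was then set against controls to ask whether collagen genes changed with Myocd deletion. By edgeR, 0 members passed in any of the 3 tissues: of 36 tested in trachea, where 0.0710% of all genes passed, of 36 in E18.5 lung, where 0.584% did, and of 35 in E13.5 lung, where 0.206% did. At an unadjusted p under 0.05 there were 6 members in trachea, where 6.75% of all genes were, 8 in E18.5 lung, where 9.41% were, and 2 in E13.5 lung, where 3.57% were. Below 0 lay 28 of 36 log2 fold changes in trachea, 17 of 36 in E18.5 lung and 28 of 35 in E13.5 lung. Of all genes, 47.4% lay below 0 in trachea and 45.9% in E13.5 lung. The medians over the members were -0.19, 0.01 and -0.10, against 0.02, 0.01 and 0.01 over all genes. These tallies moved with the libraries that stood apart, which were left out as alternatives chosen after seeing the data. Without trachea MyocdCKO replicate 4, 23 of 36 members lay below 0 with a median of -0.13. Without trachea control replicate 2 it was 29 with a median of -0.29, and without both 28 with a median of -0.18. Of all genes, 47.5%, 49.2% and 47.9% lay below 0 in the same order. The count at an unadjusted p under 0.05 was 12 without both, where 8.16% of all genes were. Without E13.5 MyocdCKO replicate 1, 21 of 35 members lay below 0, against 49.8% of all genes, with a median of -0.03. In that setting 1 member was at an unadjusted p under 0.05, where 5.51% of all genes were. The 95% interval of the fold lay within 2-fold either way for 29 of 36 members in trachea, 33 of 36 in E18.5 lung and 34 of 35 in E13.5 lung. The missed threshold does not show that the genotypes were alike: within 1.5-fold either way lay only 12, 29 and 30 intervals.

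**Figure D5:**
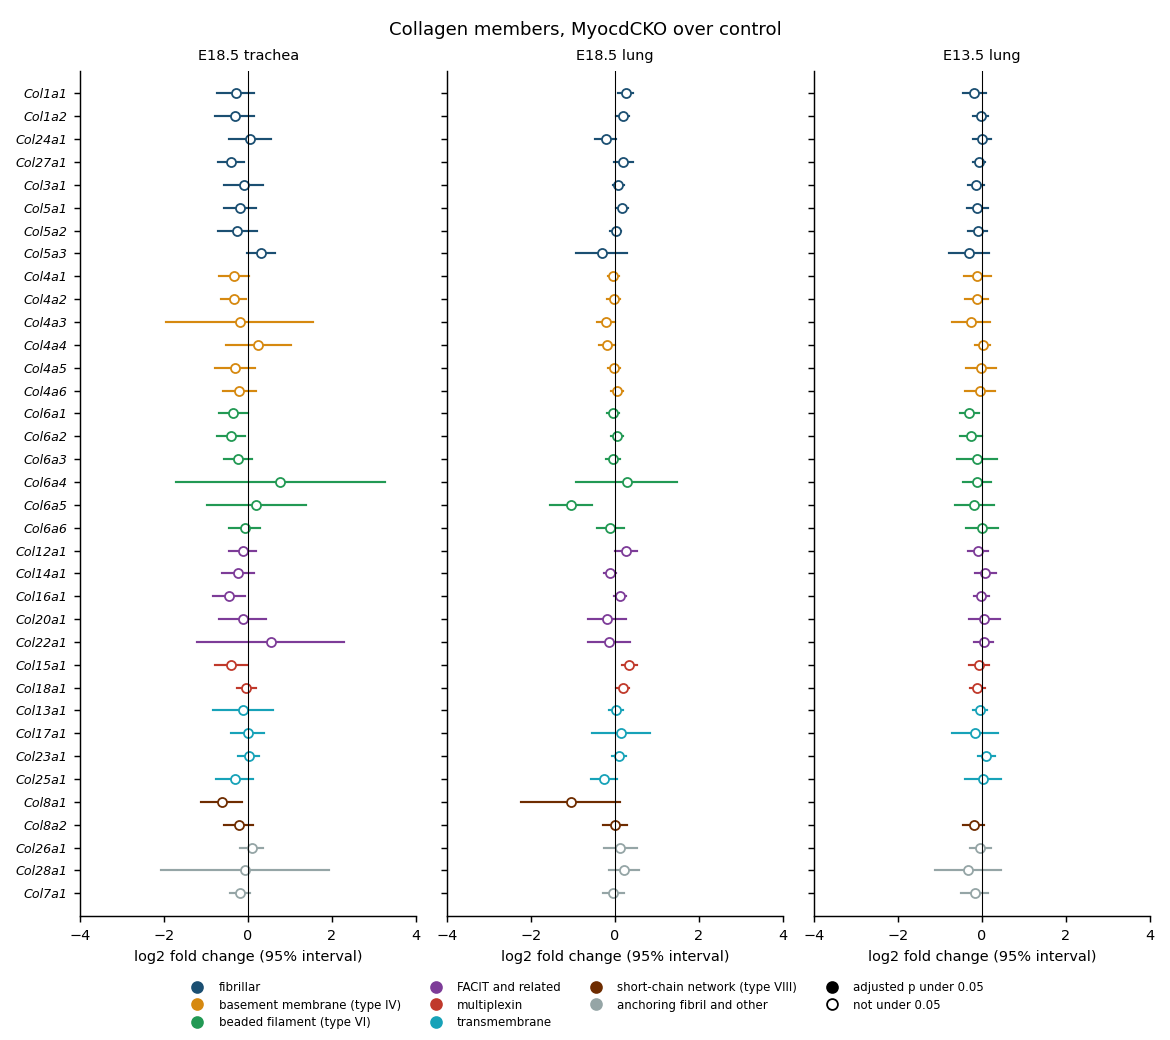
Log2 fold change of MyocdCKO over control (horizontal axis, dot) with its 95% interval (line) for each member tested in E18.5 trachea, E18.5 lung and E13.5 lung. No dot is filled, so none passed an adjusted p of 0.05; intervals are widest in the trachea, and Col6a5 in E18.5 lung has the interval farthest from 0.

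In trachea the 6 members with the smallest p were all lower in MyocdCKO and none passed. Col27a1 had 247.5, 228, 241, 245, 350 and 343 CPM in MyocdCKO tracheas, against 342, 301, 408 and 433 CPM in controls, and its log2 fold change was -0.40 ± 0.15 (adjusted p = 0.660). The groups overlapped through MyocdCKO replicates 5 and 6. Col8a1 had 84.7, 65.8, 64.2, 30.7, 73.3 and 75.2 CPM in MyocdCKO tracheas, against 110.5, 63.0, 126 and 114 CPM in controls (-0.63 ± 0.23, adjusted p = 0.660). Only control replicate 2, the shallow library with the high cardiac muscle markers, lay among the MyocdCKO values; the part of depth and of those markers was not tested. Without it and MyocdCKO replicate 4, an alternative chosen after seeing the data, Col8a1 passed (-0.66 ± 0.10, adjusted p = 0.0134), where 0.236% of all genes did. It was the single member to do so, and its adjusted p ran up to 0.917 under the other alternatives. In the full set 2 of 36 members had groups that did not overlap, where 2.34% of all genes did, and in both the MyocdCKO group was the lower, as in 1.49% of all genes. Col4a2 had 782, 691, 595, 487, 784.5 and 799 CPM in MyocdCKO, against 810.5, 948, 818 and 968 CPM in controls (-0.34 ± 0.14, and -0.27 ± 0.10 without MyocdCKO replicate 4). Col6a2 had 1598, 1344, 1166, 849.8, 1489 and 1545 CPM, against 1673, 1635, 1754 and 2129 CPM (-0.41 ± 0.16, and -0.32 ± 0.10 without that library). Col16a1 and Col15a1 were at -0.45 ± 0.17 and -0.41 ± 0.17, and the adjusted p of these 4 genes lay between 0.675 and 0.728. Beside them, the 11 cartilage markers summed to 1330 to 2510 CPM in MyocdCKO and 2530 to 3580 CPM in controls, and 5 fibroblast markers to 787 to 2030 and 1470 to 1660 CPM. The fibroblast value of 787 CPM was MyocdCKO replicate 4. The part of these markers in the collagen values was not tested.

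The cartilage collagens that the rule sets aside were lower still in MyocdCKO tracheas, by value: the median log2 fold change of the 7 was -0.84, and 0 of 7 passed. Among them only Col9a1 had groups that did not overlap, with 440 to 1324 CPM in MyocdCKO and 1369 to 2213 CPM in controls. That was so for 2.34% of all genes.

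In E18.5 lung the type VI chain Col6a5 came closest to the threshold. It had 4.0, 2.72, 4.16, 1.98, 2.03 and 2.73 CPM in MyocdCKO lungs, against 7.09, 5.52, 6.56 and 5.05 CPM in controls. Every MyocdCKO lung lay below every control lung; 1 of 36 members had groups that did not overlap, where 2.41% of all genes did, and the log2 fold change was -1.04 ± 0.24 (edgeR adjusted p = 0.0559), a fold of 0.487 with a 95% interval of 0.345 to 0.686. DESeq2 on the same libraries called it (adjusted p = 0.00398), as it did 1.64% of all genes, and so did edgeR without a filter on low counts (adjusted p = 0.00871), where 0.631% of all genes passed. Its call also came and went with a library: without MyocdCKO replicate 1 or 3 the edgeR adjusted p was 0.0362 and 0.0299, and over all alternatives it ran up to 0.289. Leukocyte markers summed to 78.8 to 106 CPM in MyocdCKO and 99.0 to 110.0 CPM in controls, and their part was not tested. In the other tissues the Col6a5 log2 fold change was -0.17 ± 0.22 in E13.5 lung and 0.19 ± 0.55 in trachea.

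The next member, Col15a1, pointed up. This multiplexin of vessel and muscle basement membranes had 151, 141, 153, 153, 139 and 176 CPM in MyocdCKO lungs, against 101, 129.5, 110 and 141 CPM in controls. Control replicate 4 lay inside the MyocdCKO range, and the log2 fold change was 0.35 ± 0.09 (edgeR adjusted p = 0.110). DESeq2 and edgeR without the filter called it too, with adjusted p of 0.0233 and 0.0191, in a range up to 0.523 over all alternatives. Col1a1, Col1a2, Col18a1 and Col5a1 followed at 0.25 ± 0.09, 0.19 ± 0.07, 0.19 ± 0.08 and 0.17 ± 0.07, all with overlapping groups and no call. Col1a2 passed only when control replicate 2 was left out (0.29, edgeR adjusted p = 0.0178, against up to 1 elsewhere). That lung, at 1888 CPM, was as high as the highest MyocdCKO lung, while the other controls had 1421 to 1505 CPM and MyocdCKO lungs 1701 to 1888 CPM.

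In E13.5 lung, where the summed contractile markers already lay apart, type VI led by p. Col6a1 had 271, 305, 334, 360.5 and 388 CPM in MyocdCKO lungs, against 435.5, 341, 379, 434 and 458 CPM in controls (-0.30 ± 0.11, adjusted p = 0.998). Col6a2 was at -0.27 ± 0.12, Col3a1 at -0.14 ± 0.08, Col8a2 at -0.19 ± 0.11, Col1a1 at -0.18 ± 0.12 and Col5a3 at -0.30 ± 0.22, with the same adjusted p. The genotypes overlapped in each of the 6, and without MyocdCKO replicate 1 Col6a1 and Col6a2 were at -0.23 ± 0.09 and -0.20 ± 0.11. MyocdCKO replicate 1 was the lowest in 18 of 28 members, and no member passed without it either.

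Whether the deletion acted differently by tissue or stage was tested as a difference of fold changes. For trachea minus lung at E18.5, 0 of 36 members passed edgeR, where 0.0252% of all genes did, and 7 had an unadjusted p under 0.05, where 6.92% of all genes did. Col15a1 had the smallest p, with -0.71 ± 0.21 for the difference: its own log2 fold changes were -0.41 in trachea and 0.35 in lung. Col27a1 and Col16a1 followed at -0.56 ± 0.19 and -0.54 ± 0.20. For E18.5 minus E13.5 lung, 0 of 36 passed, where 0.0268% of all genes did, and 6 had an unadjusted p under 0.05, where 5.85% of all genes did. The smallest were those of Col1a1 (0.43 ± 0.16), Col15a1 (0.40 ± 0.15) and Col6a5 (-0.87 ± 0.34).

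Genes that fold, process, bind and degrade collagen were listed beside the chains. The lists held 20 hydroxylation and folding genes, 12 processing and crosslinking genes, 10 receptors and 10 degradation genes. All of the first 2 lists were tested in each MyocdCKO comparison, with 8 to 10 receptors and 8 or 9 degradation genes. None of those tested passed, where 0.0710% of all genes did in trachea, 0.584% in E18.5 lung and 0.206% in E13.5 lung. Among the folding genes are P4hb, a subunit of the prolyl hydroxylase, and Serpinh1, the collagen chaperone HSP47. P4hb averaged 2022 ± 159 CPM in MyocdCKO and 1882 ± 14.1 CPM in control tracheas, and Serpinh1 1103 ± 144 and 1407 ± 155 CPM (SD, n = 6 and 4). In E18.5 lungs P4hb was at 883.5 ± 50.1 and 857 ± 59.2 CPM and Serpinh1 at 839.5 ± 105 and 764 ± 82.6 CPM (SD, n = 6 and 4). In E13.5 lungs they were at 991 ± 76.4 and 942 ± 66.9 CPM, and at 1586 ± 81.6 and 1494 ± 104 CPM (SD, n = 5 each). Loxl4, a collagen crosslinking enzyme named after its values were seen, averaged 31.0 ± 8.64 CPM in MyocdCKO and 56.1 ± 4.32 CPM in control tracheas (SD, n = 6 and 4). Its groups did not overlap, as was so for 2.34% of all genes in trachea. Its log2 fold change of -0.83 ± 0.19 had an edgeR adjusted p of 0.244.

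Between control trachea and lung at E18.5, where 24.5% of all genes were higher in trachea and 24.6% lower, members of each list passed the test. Of the 20 folding genes 17 were higher in trachea and none lower, of 12 processing genes 8 were higher and none lower, and of 10 receptors 3 were higher and 5 lower. Of 9 degradation genes tested, 6 were higher and 2 lower. The lysyl oxidase relatives Loxl3 and Loxl4, crosslinking enzymes, rose by 2.48 ± 0.14 and 5.71 ± 0.32, the fibroblast protease Fap by 4.6 ± 0.26 and the collagen-binding integrin chain Itga10 by 3.62 ± 0.21. Loxl4 averaged 56.1 ± 4.32 CPM in trachea and 1.07 ± 0.298 CPM in lung (SD, n = 4 each). The protease inhibitor Timp3 fell by 3.09 ± 0.14, the integrin chains Itga1 and Itga2 by 2.58 ± 0.13 and 2.51 ± 0.19, and the uptake receptor Mrc2 by 0.60 ± 0.11. Timp3 averaged 101 ± 17.8 CPM in trachea and 868 ± 61.8 CPM in lung (SD, n = 4 each).

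In control lung at E18.5, against E13.5, 37.4% of all genes were higher and 37.3% lower, 74.7% in all, and the numbers of list genes called were near that background. Of 20 folding genes 5 were higher at E18.5 and 11 lower, of 12 processing genes 6 were higher and 2 lower, of 10 receptors 7 were higher and 1 lower, and of 9 degradation genes 5 were higher and 2 lower. The procollagen proteases Adamts2 and Adamts14 rose by 2.77 ± 0.10 and 2.72 ± 0.10, Pcolce2, a helper of procollagen cleavage, by 2.59 ± 0.13 and Itga1 by 2.12 ± 0.11. P3h3, Serpinh1, Fkbp10 and P4ha3, all for folding or hydroxylation, fell by 1.11 ± 0.08, 0.95 ± 0.10, 0.73 ± 0.07 and 1.22 ± 0.14. Adamts2 averaged 152 ± 10.4 CPM at E18.5 (SD, n = 4) and 22.4 ± 2.58 CPM at E13.5 (SD, n = 5). These lists were chosen with results of these data known, so their counts describe and do not test the lists.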

How the data were processed

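Poly(A) RNA was sequenced as single reads of 75 bases from TruSeq libraries, which do not mark strand, per the labels' protocols. STAR (version not given here) and the build GRCm38 are named in the submitters' processing notes. What the authors deposited are unnormalized gene-level read counts from featureCounts 1.6.2 with GENCODE vM17, per the file headers, run with default options, so reads on overlapping genes were dropped. Length, another column of the deposited tables, is the union of a gene's exons. Gene IDs were matched to GENCODE vM21 symbols (53620 of 53715).

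Counts were tested with edgeR 4.0.16 in R 4.3.3: TMM, filterByExpr, a robust quasi-likelihood fit, two-sided, Benjamini-Hochberg over all genes, threshold 0.05. The standard error is the log2 fold change divided by the square root of F. Each tissue was fitted alone for MyocdCKO against control; the control comparisons and differences used 20 libraries each. Levels are CPM on TMM sizes of all 30 libraries; levels per kb use the GENCODE vM21 transcript with the longest coding sequence. Only the edgeR fits of MyocdCKO against control were tested on simulated counts. Alternatives were DESeq2 1.42.0, other size factors, no filter, each library left out, a replicate block and, for MyocdCKO, a fit of all 30 libraries.

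Col19a1 passed the low-count filter in no fit, and Col8a1 not in that of E13.5 lung. Exon bases shared with another gene were at most 5.6% (Col4a3). No replicate pair was a copy (lowest chi-square per degree of freedom 4.11). Replicate numbers pair control trachea with control lung at E18.5: the 4 same-numbered pairs deviated together, with correlations of 0.121 to 0.224, each the highest of its library; the pairing comes from these data and not from the labels. Blocking left 32 calls. The named members were those past the threshold or with the smallest p (6 per MyocdCKO comparison, 3 per difference), the 8 largest rises and falls between controls at 5 CPM or more, and the leading member of each class; others are given so that all 37 are accounted for. Members and lists were chosen with earlier results of these data known. Intervals and limits at 0 cover counting error or replicate spread only.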

Additional observations from a re-analysis of the deposited data

Results flagged for a closer look

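For 13 of the 183 sets of 4 to 6 libraries checked, a library stood apart from the rest of its group by Dixon's test at 95%, which flags about 1 set in 20 by chance. Of these, 7 were low values of trachea MyocdCKO replicate 4. It had 4456 CPM of Col3a1, where the other 5 had 10870 to 12760, and 803 CPM of Col5a1 (others 1546 to 1801). It had 465 CPM of Col5a2 (others 1075 to 1420), 229 CPM of Col12a1 (others 344 to 397) and 386 CPM of Col14a1 (others 722.5 to 874). Col6a3 was at 1086 CPM (others 1685 to 2018) and Col6a6 at 44.6 CPM (others 77.6 to 93.9). This library had 12.4 M counts, and its fibroblast markers summed to 787 CPM; their part was not tested.

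E13.5 MyocdCKO replicate 1 was low in 3: 899.7 CPM of Col1a1 (others 1287 to 1437), 1148 CPM of Col1a2 (others 1426 to 1531) and 294.5 CPM of Col5a1 (others 453.5 to 468). Trachea control replicate 2 had 7.35 CPM of Col20a1, where the other 3 had 18.2 to 19.3. Single high values were 19.9 CPM of Col22a1 in E13.5 MyocdCKO replicate 3 (others 17.4 to 18.1) and 176 CPM of Col15a1 in E18.5 lung MyocdCKO replicate 6 (others 139 to 153).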

How the results depend on the processing

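No direction of a member turned under any alternative run in a comparison for which it was named by call or p. Col15a1, not so named for E13.5 lung, moved there from -0.055 ± 0.109 to 0.047 ± 0.053 without MyocdCKO replicate 1. The count of members called stayed at 0 for E13.5 lung and both difference tests, at 31 to 34 for trachea against lung and at 25 to 28 for E18.5 against E13.5 lung. For E18.5 lung MyocdCKO against control it was 2 with DESeq2 and 2 with no filter on low counts, and 0 to 1 with each library left out in turn. For trachea MyocdCKO against control it was 0 with each library left out in turn, and 1, Col8a1, without the 2 shallow libraries, an alternative added after seeing the data. Over all genes the median log2 fold change moved to 0.1 at most. With the replicate block, counts were 0 in the MyocdCKO and difference tests, 32 for trachea against lung and 26 for E18.5 against E13.5 lung, where Col1a1 was lost (-0.28, adjusted p = 0.0543). As with control lung and control trachea, each of the 6 E18.5 MyocdCKO lungs matched its own number best in trachea. Those correlations ran from 0.056 to 0.234, and 5 of the 6 exceeded 0.1. In the other pairings correlations of same-numbered libraries ran from -0.288 to 0.272. There, not every pair exceeded 0.1 and not every library matched its own number best. MyocdCKO intervals were widest in trachea, so small changes are hardest to detect there. Depth in trachea ran from 11.7 to 30.5 M counts. The shallowest libraries were control replicate 2, at 11.7 M, and MyocdCKO replicate 4, at 12.4 M. The part of depth in the width of the intervals was not tested.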
